A study of Mus musculus with 4 samples.

Results

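The genes described here encode the ADAMTS proteases, their non-enzymatic ADAMTS-like (ADAMTSL) relatives, the membrane-bound ADAM proteins, the matrix metalloproteinases (MMPs) and the tissue inhibitors of metalloproteinases (TIMPs). They were the rows of the gene table whose symbol began with Adamts, Adamtsl, Adam, Mmp or Timp followed by a number. This gave 63 of 15768 genes. The families, with Adamts17 to be placed among them, were chosen with earlier results of these data known. The 63 were 17 ADAMTS, 5 ADAMTSL, 18 ADAM, 19 MMP and 4 TIMP genes. A filter on low counts left 46 of them for testing, among 12222 genes tested in all, and the other 17 are given by their counts.

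The cells were of JoMa1.3, a neural crest line from mouse that is immortalised conditionally, labelled wild type and grown in DMEM and Ham's F-12 with EGF, FGF and chick embryo extract. Cultures received a pool of siRNAs against Stk11, the gene of the kinase LKB1 (Lkb1 siRNA, n = 2), or a pool of non-targeting siRNAs (control siRNA, n = 2), each at 60 nM. RNA was taken after 72 h and sequenced as pairs of 150 bp reads, to find genes that act downstream of a loss of Lkb1. The labels place 1 library of either group in batch 1 and 1 in batch 2, and per-library values are given in batch order. All 4 libraries came from 1 cell line, and the knockdown was partial.

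Stk11 stood at 36.3 and 36.9 FPKM in the Lkb1 siRNA libraries, against 52.7 and 52.1 FPKM in the control siRNA libraries. In edgeR's quasi-likelihood test this was a fall of the log2 level with a fold change of -0.55 (adjusted p = 0.0378, SE 0.0659). FPKM is the number of fragments scaled to transcript length and to library size, so it is the scale on which levels of different genes are set side by side here. Total gene counts were between 17426719 and 19324675 per library. Of 9 neural crest markers, 7 were in the table and 5 stood at 1 FPKM or more in every library (Snai2, Twist1, Nes, Sox9 and Tfap2a), while Ngfr stayed between 0.51 and 0.8 FPKM and Ednrb at or near 0, and Sox10 and Foxd3 are not analysed here. All 5 mesenchyme markers exceeded 1 FPKM in every library, and their summed level was 606 and 678 FPKM after Lkb1 siRNA, against 736 and 852 FPKM after control siRNA. Nearly all of that sum was Col1a1 and Acta2, whose groups did not overlap in FPKM, while Col1a2, Pdgfra and Pdgfrb overlapped between the groups. Neuronal markers summed to 11.6 and 8.24 FPKM after Lkb1 siRNA, against 7.75 and 7.71 FPKM after control siRNA, nearly all of it Tubb3. The summed markers of macrophages and blood, endothelium, epithelium and glia stayed at or under 1.51 FPKM in each library.

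Metalloproteinases of these families cut proteins outside the cell with a zinc ion held by histidine side chains. ADAMTS enzymes and MMPs act mainly on the extracellular matrix, ADAM enzymes release membrane-bound growth factors, adhesion molecules and Notch receptors from the cell surface, and TIMPs block the active site of all of these to different extents. Migrating neural crest cells are known to use such enzymes to remodel the matrix around them and to shed cadherins.

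The zinc-binding site was read in the coding sequences as the codons for histidine, glutamate, histidine and a last histidine in the spacing that these families share. It is shown for a few members because it separates the enzymes from the members that lack a protease site. Each stretch is 33 bases of the longest coding sequence in GENCODE M21 (mouse build GRCm38), 5′ to 3′, with the zinc-site codons in capitals, including a glycine codon before the last histidine where there is one:
Adamts17: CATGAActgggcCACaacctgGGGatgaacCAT
Adamts10: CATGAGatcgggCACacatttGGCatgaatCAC
Adamts1: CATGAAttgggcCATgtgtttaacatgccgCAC
Adam10: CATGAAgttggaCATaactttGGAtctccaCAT
Mmp13: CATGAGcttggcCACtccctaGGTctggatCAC

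The codons were found in 48 of the 63 members. All 17 ADAMTS and all 19 MMP coding sequences held them, as did 12 of 18 ADAM sequences, against 0 of 5 ADAMTSL and 0 of 4 TIMP sequences. The 6 ADAM members without them were Adam4, Adam5, Adam11, Adam22, Adam23 and Adam32. In Adamts17 the stretch began at codon 387 of the coding sequence, and in Adamts10, another fibrillin-associated enzyme, at codon 392. In 5 ADAMTS members (Adamts1, Adamts4, Adamts9, Adamts15 and Adamts20) the glycine codon was replaced by an asparagine codon, as the Adamts1 line shows. All 5 were in the proteoglycanase group used below, while Adamts5, a proteoglycanase as well, kept the glycine codon.

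Summed over each family, TIMP transcripts were the most abundant per length and ADAMTSL transcripts the least in all 4 libraries. The TIMP sum was 278 and 290 FPKM after Lkb1 siRNA, against 292 and 301 FPKM after control siRNA. The MMP sum was 223 and 242 FPKM after Lkb1 siRNA, against 223 and 248 FPKM after control siRNA. The TIMP sum was lower after Lkb1 siRNA in both batches, while the MMP sum was nearly equal in batch 1 and lower in batch 2.

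The ADAMTS sum was 194 and 259 FPKM after Lkb1 siRNA, against 173 and 239 FPKM after control siRNA, so batch 2 was above batch 1 in both groups. The ADAM sum was 170 and 177 FPKM after Lkb1 siRNA, against 169 and 180 FPKM after control siRNA. The ADAMTSL sum was 18.1 and 19.1 FPKM after Lkb1 siRNA, against 16.4 and 19.1 FPKM after control siRNA. Single genes made up much of several sums: Timp2, which inhibits MMPs and takes part in the activation of pro-MMP2, Mmp2 itself (gelatinase A), and Adamts1, a versican- and aggrecan-cleaving protease, were the most abundant members.

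**Figure D1:**
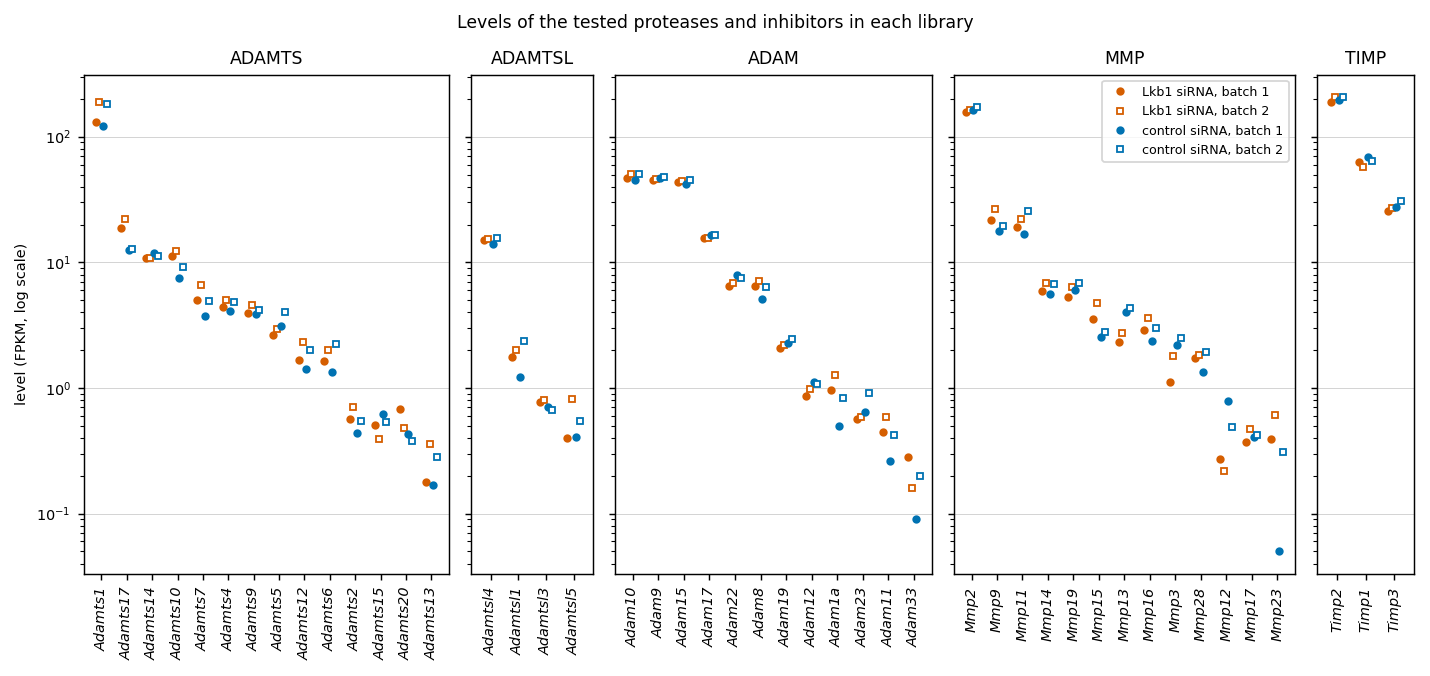
Deposited FPKM (log scale) of the 46 tested members in each of the 4 libraries, ordered by mean level within each family, with Lkb1 siRNA in orange left of control siRNA in blue and filled circles for batch 1 and open squares for batch 2. Timp2, Mmp2 and Adamts1 lie above 100 FPKM in every library, Adamts17 is the ADAMTS gene with the next highest mean after Adamts1, and the points of Adamts1 part by batch and those of Adamts17 by siRNA.

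Adamts17 (gene ID 233332), a secreted metalloprotease whose loss causes a Weill-Marchesani-like syndrome in humans, was higher after Lkb1 siRNA and was the 1 member that passed the threshold. It stood at 18.8 and 22.1 FPKM in the Lkb1 siRNA libraries, against 12.5 and 12.9 FPKM in the control siRNA libraries. The groups did not overlap, and the control siRNA libraries were close to each other while the Lkb1 siRNA libraries lay further apart. In CPM, counts scaled to library size, it averaged 115.7 ± 12.9 after Lkb1 siRNA and 73.2 ± 0.654 after control siRNA (SD, n = 2 each). The rise was 0.66 on the log2 scale, a 1.58-fold change (SE 0.0849, adjusted p = 0.0378, edgeR). It was seen in both batches, at 0.55 in batch 1 and 0.76 in batch 2.

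Among all 12222 genes the test ranked Adamts17 in place 7 by p-value. The same test called 0.0818% of all genes, 0.0327% as higher and 0.0491% as lower, so 1 call as higher and 0 as lower among 46 members stand beside 4 and 6 calls among all genes. At an unadjusted p under 0.05 there were 6 members higher and 6 lower, beside 5.61% and 5.53% of all genes (11.1% in either direction). In bulk RNA a difference in level may reflect more RNA per cell or more cells that express a gene, and these cannot be told apart here. The labels give a number and a batch and do not state that the cultures were independent. The p-values of this test thus measure the spread between these libraries.

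The call of Adamts17 rested on the settings of the test. It passed in DESeq2 (log2 fold change 0.66, adjusted p = 1.1e-05), where it was the 1 member called beside 0.399% of all genes, with batch as a block, and when any 1 library was left out. In edgeR it missed the threshold when libraries were scaled by their totals and not by TMM (adjusted p = 0.0633) and with a stricter filter (adjusted p = 0.0629). It also missed in limma on log2(FPKM + 1) (adjusted p = 0.293), which called 0 of 12222 genes in either direction. The log2 fold changes in these settings lay between 0.65 and 0.69.

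The transcript table held 4 RefSeq models of Adamts17, 1 of them curated. The curated model took 1734 and 2157 counts after Lkb1 siRNA, against 1203 and 1257 counts after control siRNA. That was 92.6% and 92.2% of the gene's counts after Lkb1 siRNA, against 90.2% and 88.5% after control siRNA. A predicted model took 119 and 163 counts after Lkb1 siRNA, against 111 and 144 counts after control siRNA, and the other models had at most 18.9 counts in any library. Most of the additional counts after Lkb1 siRNA were in the curated model, whose log2 fold change was 0.70 (SE 0.0968, unadjusted p = 0.00289, edgeR adjusted p = 0.687 over 34279 transcripts). None of the 34279 transcripts passed the threshold in the transcript test, while 2313 (6.75%) had an unadjusted p under 0.05. Of the 99 tested transcripts of member genes, 8 had an unadjusted p under 0.05.

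The start of Adamts17 lies on the plus strand of chromosome 7. The 200 bases before it, at chr7:66839535-66839734 in GRCm38 (RefSeq promoter table), are shown because Adamts17 carries the call. Capitals mark CCAAT, in either orientation:
Adamts17 promoter: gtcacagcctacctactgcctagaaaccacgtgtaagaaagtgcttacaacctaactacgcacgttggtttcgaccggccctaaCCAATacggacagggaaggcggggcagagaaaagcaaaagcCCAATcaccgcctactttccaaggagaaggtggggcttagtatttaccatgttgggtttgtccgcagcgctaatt
The match nearest the start began 75 bases upstream of it. CCAAT was found on either strand within 250 bases of the start in 33.8% of all 32851 promoters and in 10 of the 44 promoters listed for 40 member genes. The promoter also held the E-box CACGTG, 173 bases upstream, which was found in 6.02% of all promoters and in 3 of 44 member promoters. It held no match to the AP-1 letters TGANTCA or to the GC box GGGCGG.

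**Figure D2:**
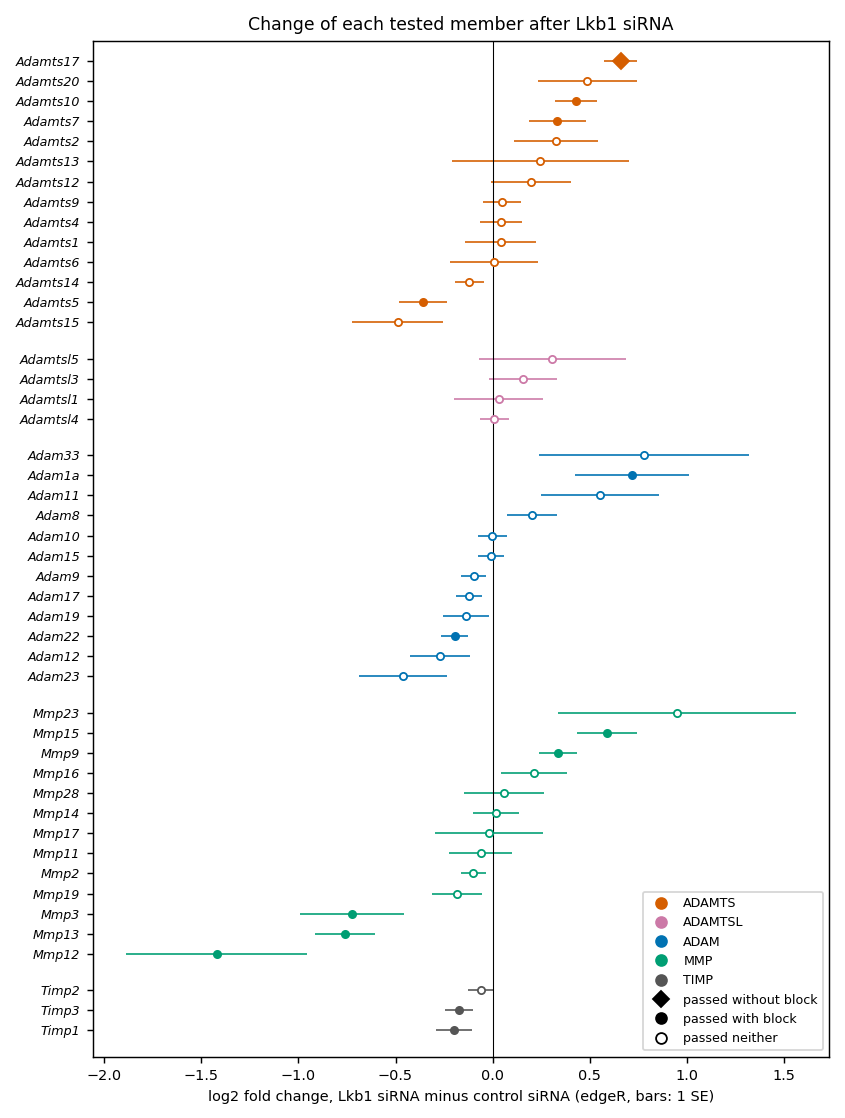
Log2 fold change (Lkb1 siRNA minus control siRNA, edgeR without the block) of each of the 46 tested members with 1 SE, grouped by family and ordered within it. The diamond marks Adamts17, the 1 member past the threshold without the block, filled circles mark the 12 others that passed with batch as a block, and open circles passed in neither fit.

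A number in the labels marks a shared batch, so the comparison was also fitted with batch as a replicate block. This takes the difference between the batches out of the error. With 4 libraries few degrees of freedom are left per gene, so the p-values of this fit rest largely on a spread estimated across all genes. In that fit 6.59% of all genes passed as higher and 6.99% as lower, or 13.6% in all. Of the 46 members 6 passed as higher (Adamts17, Adamts10, Adamts7, Adam1a, Mmp15 and Mmp9) and 7 as lower (Adamts5, Adam22, Mmp3, Mmp12, Mmp13, Timp1 and Timp3). Besides Adamts17, these 12 genes failed the test without the block, and their values are given below family by family. Mmp12 among them entered the test only through the control siRNA libraries, where it was higher. DESeq2 with the same block called 1 member as higher (Adamts17) and 0 as lower, beside 0.736% and 1.34%, or 2.08% in all, of the 5975 genes that had an adjusted p there. Of the other 12, 5 missed the threshold in that fit (adjusted p = 0.0965 for Adamts10, 0.143 for Mmp9, 0.509 for Timp3, 0.648 for Adam22 and 0.789 for Timp1, DESeq2) and 7 had no adjusted p. The calls given below as passing with the block are those of edgeR. The median log2 fold change of the 46 members was 0.013, with 25 positive and 21 negative, beside a median of 0.00049 for all genes. The median size of the change, regardless of sign, was 0.20 in the members and 0.10 in all genes. The members and all genes were not matched for level. Mmp12, Mmp23 and Adam33, the members with the largest changes, had at most 26 counts in any library.

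Within the ADAMTS family 11 of 14 tested genes had a positive log2 fold change, with a median of 0.12. This median was -0.07 without the batch 2 Lkb1 siRNA library, -0.04 without the batch 1 control siRNA library, and 0.34 and 0.38 without the other two libraries in turn, so its direction rested on which library was included. Adamts17 belongs to a group of 6 that hold fibrillin-associated and little-studied enzymes (Adamts6, Adamts10, Adamts16, Adamts17, Adamts18 and Adamts19), of which 3 were tested. Their summed level was 31.6 and 36.5 FPKM after Lkb1 siRNA, against 21.2 and 24.3 FPKM after control siRNA. Adamts17 itself made up 18.8 and 22.1 FPKM of this after Lkb1 siRNA and 12.5 and 12.9 FPKM after control siRNA. Most of the rest was Adamts10.

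Adamts10 (gene ID 224697), a fibrillin-binding protease that causes Weill-Marchesani syndrome when mutated in humans, stood at 11.2 and 12.3 FPKM after Lkb1 siRNA, against 7.44 and 9.14 FPKM after control siRNA. Its groups did not overlap. The log2 fold change was 0.43 (SE 0.107, adjusted p = 0.212, edgeR), and it passed with the block (adjusted p = 1.83e-07). The gene had 16 tested transcripts, of which 14 were at a count of 0 in some library, so the assignment of its reads to transcripts varied from library to library.

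Adamts6, the closest paralogue of Adamts10, stood at 1.64 and 2.01 FPKM after Lkb1 siRNA, against 1.33 and 2.25 FPKM after control siRNA. These values overlapped, with a log2 fold change of 0.0085 (SE 0.226, adjusted p = 0.992, edgeR). Adamts16, Adamts18 and Adamts19 had at most 2 counts in any library and were not tested. Of the 3 tested members, 1 (Adamts17) passed in both edgeR fits, 1 (Adamts10) with the block alone, and 1 (Adamts6) in neither.

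Adamts7 (gene ID 108153), which cleaves cartilage oligomeric matrix protein, stood at 5.04 and 6.61 FPKM after Lkb1 siRNA, against 3.71 and 4.95 FPKM after control siRNA. In FPKM the groups did not overlap, while in CPM the batch 1 Lkb1 siRNA library (23.9) lay under the batch 2 control siRNA library (24.3). Within each batch the Lkb1 siRNA library was higher, by 0.33 and 0.32 on the log2 scale. Its log2 fold change was 0.33 (SE 0.149, adjusted p = 0.448, edgeR; adjusted p = 0.00167 with the block). A predicted transcript model took 106 and 167 counts after Lkb1 siRNA, against 28.2 and 45.8 counts after control siRNA (edgeR transcript test, adjusted p = 0.687). The curated models had log2 fold changes of 0.33, 0.28 and -2.4, the last with an SE of 3.07. That last model took 69.8 and 0.15 counts in the control siRNA libraries. Another predicted model took 86.85 counts in the batch 2 control siRNA library and 0 in every other library. The assignment of reads to transcripts thus varied between libraries in this gene too.

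The 6 proteoglycanases, which cleave aggrecan and versican, had a median log2 fold change of 0.04, and none passed without the block. Adamts1 (gene ID 11504), the most abundant of them, stood at 132 and 188 FPKM after Lkb1 siRNA, against 122 and 182 FPKM after control siRNA. Its groups overlapped, and batch 2 was the higher batch in both. Adamts5 (gene ID 23794), an aggrecanase, stood at 2.65 and 2.93 FPKM after Lkb1 siRNA, against 3.11 and 4.04 FPKM after control siRNA. These groups did not overlap, with a log2 fold change of -0.36 (SE 0.125, adjusted p = 0.351, edgeR), and the gene passed with the block (adjusted p = 0.000994).

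Adamts15, a versican-cleaving member, stood at 0.51 and 0.39 FPKM after Lkb1 siRNA, against 0.62 and 0.54 FPKM after control siRNA, and passed in neither fit. Adamts20, whose loss gives the belted coat spotting of mice, stood at 0.68 and 0.48 FPKM after Lkb1 siRNA, against 0.43 and 0.38 FPKM after control siRNA, and passed in neither fit. The procollagen N-proteinase Adamts14 stood at 10.8 and 10.9 FPKM after Lkb1 siRNA, against 11.8 and 11.3 FPKM after control siRNA, so that Adamts14 and Adamts17 were near each other after control siRNA and apart after Lkb1 siRNA. Its log2 fold change was -0.12 (SE 0.0747, adjusted p = 0.574, edgeR).

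The 4 tested ADAMTSL genes, which share the thrombospondin repeats of the ADAMTS enzymes but hold no protease domain, all had small positive log2 fold changes, between 0.01 and 0.31, and none passed in either fit. Their median of 0.09 was -0.03 without the batch 2 Lkb1 siRNA library and 0.52 without the batch 2 control siRNA library. In the latter Adamtsl2 passed the filter as well, and the median was over 5 genes. Adamtsl2 entered only through the Lkb1 siRNA libraries, where it was higher, so that median is not independent of the filter. Adamtsl4, a fibrillin-binding protein, was the most abundant at 15.0 and 15.3 FPKM after Lkb1 siRNA, against 14.0 and 15.5 FPKM after control siRNA. Adamtsl1 stood at 1.77 and 2.00 FPKM after Lkb1 siRNA, against 1.23 and 2.38 FPKM after control siRNA, and the difference had opposite signs in the batches. Adamtsl4 and Adamtsl5 changed sign between the batches too. Only 1 of the 4 tested genes thus kept its sign, beside 67.2% of all genes.

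Adamtsl2, whose product binds the latent TGF-beta binding protein LTBP1, was under the filter. It had 8 and 10 counts after Lkb1 siRNA, against 1 and 2 counts after control siRNA. The ratio of the summed counts, corrected for library totals, was 6.35 with an exact 95% interval of 1.85 to 33.7 that covers counting error only. Without the filter its unadjusted p was 0.00793 and its adjusted p was 0.292 in edgeR.

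No ADAM gene passed without the block, and 4 of 12 tested genes had a positive and 8 a negative log2 fold change, with a median of -0.05. Without the batch 2 control siRNA library the median was 0.035, over 13 genes because Adam4 then passed the filter. It did so through the 11 counts of the batch 1 Lkb1 siRNA library. Adam10, the main sheddase of Notch and N-cadherin, stood at 47.2 and 50.7 FPKM after Lkb1 siRNA, against 45.3 and 50.5 FPKM after control siRNA (log2 fold change -0.00198, SE 0.074, adjusted p = 0.995, edgeR). Adam9 and Adam15, both broadly expressed sheddases, lay between 41.6 and 48.0 FPKM in every library. Adam17, which releases TNF and EGF receptor ligands, stood at 15.5 and 15.6 FPKM after Lkb1 siRNA, against 16.5 and 16.6 FPKM after control siRNA. Its groups did not overlap, but the log2 fold change of -0.12 (SE 0.0677, adjusted p = 0.536, edgeR) passed in neither fit.

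Adam22 (gene ID 11496), which lacks the zinc site and serves as a receptor for LGI proteins in the brain, stood at 6.45 and 6.88 FPKM after Lkb1 siRNA, against 7.95 and 7.53 FPKM after control siRNA. The groups did not overlap, with a log2 fold change of -0.20 (SE 0.0715, adjusted p = 0.358, edgeR; adjusted p = 0.0145 with the block). Adam23, a related protein without the site, stood at 0.57 and 0.59 FPKM after Lkb1 siRNA, against 0.64 and 0.92 FPKM after control siRNA, and passed in neither fit. Adam11, the third of this kind among the tested genes, stood at 0.45 and 0.59 FPKM after Lkb1 siRNA, against 0.26 and 0.42 FPKM after control siRNA, and passed in neither fit.

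Adam1a, known in mice from sperm development, stood at 0.97 and 1.28 FPKM after Lkb1 siRNA, against 0.50 and 0.83 FPKM after control siRNA. The groups did not overlap, and the log2 fold change was 0.72 (SE 0.295, adjusted p = 0.408, edgeR; adjusted p = 0.0288 with the block). In GENCODE M21, 24.0% of its exon bases overlap exons of Mapkapk5 and 63.7% those of the model Gm42878 on the same strand, so reads could not always be assigned to Adam1a.

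No MMP gene passed without the block either. The family's members lay on both sides of 0, and its median of -0.02 lay close to that of all genes, with 6 positive and 7 negative log2 fold changes. The median was -0.12 without the batch 2 Lkb1 siRNA library and -0.13 without the batch 1 control siRNA library, but 0.11 without the batch 1 Lkb1 siRNA library and 0.14 without the batch 2 control siRNA library. The gelatinases Mmp2 and Mmp9 degrade denatured and basement membrane collagen. Mmp2, the most abundant member of the family, stood at 158 and 163 FPKM after Lkb1 siRNA, against 162 and 173 FPKM after control siRNA, with a log2 fold change of -0.10 (SE 0.0654, adjusted p = 0.606, edgeR). Mmp9 (gene ID 17395) stood at 21.9 and 26.6 FPKM after Lkb1 siRNA, against 17.9 and 19.6 FPKM after control siRNA. Its groups did not overlap, with a log2 fold change of 0.34 (SE 0.0975, adjusted p = 0.28, edgeR; adjusted p = 2.12e-06 with the block).

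Among the membrane-type MMPs, Mmp15 (gene ID 17388) stood at 3.54 and 4.71 FPKM after Lkb1 siRNA, against 2.56 and 2.80 FPKM after control siRNA. Its groups did not overlap, with a log2 fold change of 0.59 (SE 0.153, adjusted p = 0.227, edgeR; adjusted p = 4.48e-06 with the block). Mmp14, which activates pro-MMP2 at the cell surface together with TIMP2, stood at 5.96 and 6.83 FPKM after Lkb1 siRNA, against 5.63 and 6.71 FPKM after control siRNA, and passed in neither fit. The group's 4 tested members had a median log2 fold change of 0.12.

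Mmp13, Mmp3 and Mmp12, a collagenase, a stromelysin and an elastase, were lower in both Lkb1 siRNA libraries than in either control siRNA library. Mmp13 (gene ID 17386) stood at 2.32 and 2.73 FPKM after Lkb1 siRNA, against 4.01 and 4.34 FPKM after control siRNA. Its log2 fold change was -0.76 (SE 0.155, adjusted p = 0.134, edgeR; adjusted p = 4.11e-06 with the block). In edgeR without the block the adjusted p was 0.0172 and 0.0434 without the batch 1 and the batch 2 control siRNA library, and 0.286 and 0.06 without the batch 1 and the batch 2 Lkb1 siRNA library.

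Mmp3 (gene ID 17392) stood at 1.11 and 1.79 FPKM after Lkb1 siRNA, against 2.19 and 2.50 FPKM after control siRNA (log2 fold change -0.72, SE 0.268, adjusted p = 0.362, edgeR; adjusted p = 0.0166 with the block). Mmp12 (gene ID 17381) had 9 and 6 counts after Lkb1 siRNA, against 26 and 16 counts after control siRNA. The ratio of the summed counts of Mmp12, corrected for library totals, was 0.378 with an exact 95% counting interval of 0.195 to 0.696. Its log2 fold change was -1.42 (SE 0.467, adjusted p = 0.327, edgeR; adjusted p = 0.0161 with the block). Both Lkb1 siRNA libraries lay under the minimum count of 10. Mmp12 thus entered the test only through the control siRNA libraries, where it was higher, so its call is not independent of the filter. DESeq2 with the block gave Mmp12 no adjusted p. Macrophages are known as a main source of Mmp12, and the 1 marker of that list in the table, Cd68, stood at 1.51 and 1.14 FPKM after Lkb1 siRNA, against 0.95 and 0.92 FPKM after control siRNA. Its part in the values of Mmp12 was not tested.

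These 3 genes stand in 1 row on mouse chromosome 9, where RefSeq lists Mmp13, Mmp12, Mmp1b, Mmp3, Mmp1a, Mmp10, Mmp8 and Mmp27 as neighbours with no other protein-coding gene between them. Mmp1a, Mmp1b, Mmp8, Mmp10 and Mmp27 had at most 4 counts in any library and were not tested. The 100 bases before each start are shown because Mmp13 and Mmp3 lay in the same direction, with the AP-1 letters TGANTCA in capitals. Those of Mmp12 are shown as a neighbour only, since its direction is not independent of the filter. All are on the plus strand of chromosome 9 in GRCm38 (RefSeq promoter table), at chr9:7272414-7272513 for Mmp13, chr9:7445722-7445821 for Mmp3, and chr9:7344297-7344396 and chr9:7347274-7347373 for a first and a second promoter of Mmp12:
Mmp13 promoter: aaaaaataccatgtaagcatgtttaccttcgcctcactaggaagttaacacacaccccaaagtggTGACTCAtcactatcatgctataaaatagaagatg
Mmp3 promoter: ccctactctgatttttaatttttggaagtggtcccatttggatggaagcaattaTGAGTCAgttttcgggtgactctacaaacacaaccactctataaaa
Mmp12 first promoter: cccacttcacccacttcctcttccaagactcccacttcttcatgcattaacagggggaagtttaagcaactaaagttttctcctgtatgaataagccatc
Mmp12 second promoter: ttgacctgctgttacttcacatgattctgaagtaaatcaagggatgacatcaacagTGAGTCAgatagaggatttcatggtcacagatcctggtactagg

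The match began 35 bases upstream of the start in Mmp13, 46 bases upstream in Mmp3 and 44 bases upstream in the second promoter of Mmp12. TGANTCA reads the same on both strands and shares no start with the CRE letters TGACGTCA. Within 250 bases of the start it was found in 6.75% of all 32851 promoters. It was found in 7 of 44 member promoters, those of Mmp1a, Mmp1b, Mmp3, Mmp10, Mmp12, Mmp13 and Adam19, so also in neighbours with too few counts to test. TGACGTCA was found in 1.55% of all promoters and in 0 of 44 member promoters. These are matches of letters and say nothing of whether a factor binds.

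**Figure D3:**
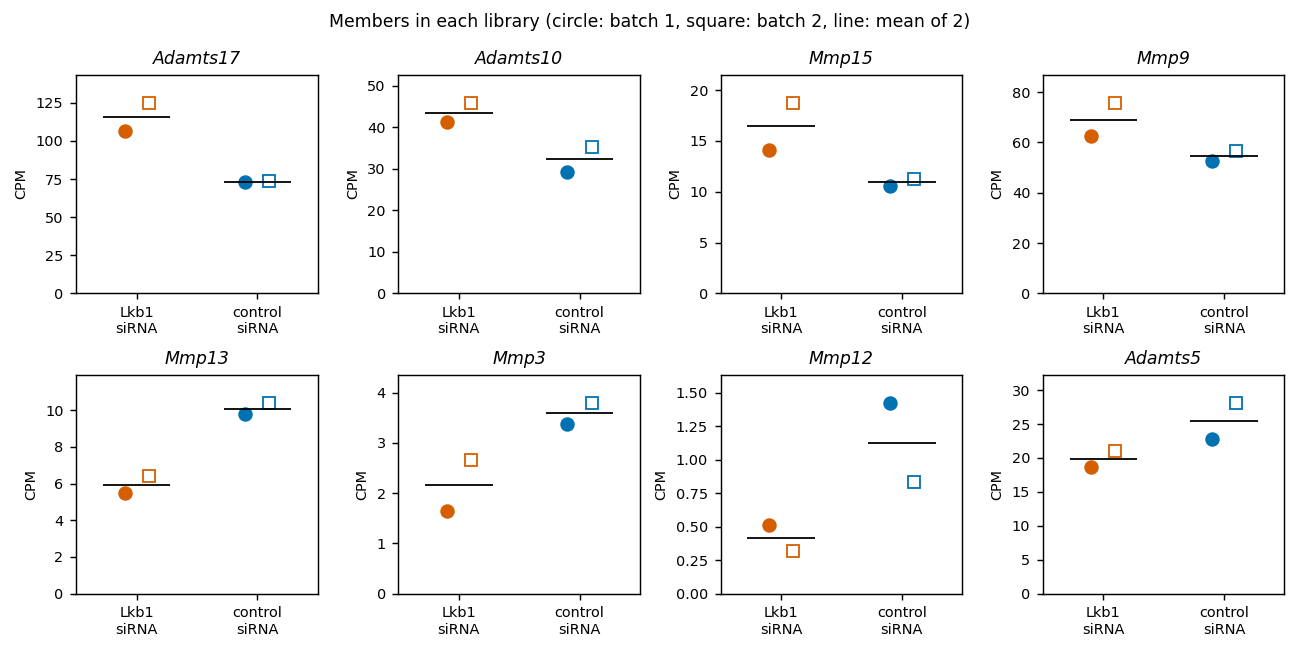
CPM of 8 members in each library (circle: batch 1, square: batch 2, line: mean of 2), Lkb1 siRNA left of control siRNA. In each of the 8 panels the groups do not overlap, as in 42.7% of all genes. Adamts17, Adamts10, Mmp15 and Mmp9 are higher and Mmp13, Mmp3, Mmp12 and Adamts5 lower after Lkb1 siRNA. Of these, Adamts17 alone passed the threshold without the block. The 8 were picked from the members that passed with the block, which include Adamts7, whose groups overlap in CPM.

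Mmp11, a stromelysin of stromal cells, stood at 19.3 and 22.0 FPKM after Lkb1 siRNA, against 16.9 and 25.4 FPKM after control siRNA, so the Lkb1 siRNA values lay inside the range of the control siRNA values. Mmp23 was named after its values were seen. It had 14 and 16 counts after Lkb1 siRNA, against 2 and 14 counts after control siRNA, with a ratio of 1.99 (exact 95% counting interval 1.05 to 3.9), and it passed in neither fit. Mmp23, Adam33 and Adam1a had larger positive log2 fold changes than Adamts17, with standard errors of 0.614, 0.543 and 0.295 beside 0.0849 for Adamts17.

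All 3 tested TIMP genes had negative log2 fold changes, with a median of -0.17 that was between -0.13 and -0.11 when single libraries were left out, and none passed without the block. Timp1 (gene ID 21857), a broad MMP inhibitor, stood at 62.4 and 57.7 FPKM after Lkb1 siRNA, against 69.1 and 64.6 FPKM after control siRNA. Its groups did not overlap, with a log2 fold change of -0.20 (SE 0.0912, adjusted p = 0.456, edgeR; adjusted p = 0.0437 with the block).

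Timp3 (gene ID 21859), which is bound to the matrix and also inhibits ADAM17 and aggrecanases, stood at 25.7 and 27.3 FPKM after Lkb1 siRNA, against 27.6 and 30.6 FPKM after control siRNA. Its groups did not overlap, with a log2 fold change of -0.17 (SE 0.0728, adjusted p = 0.427, edgeR; adjusted p = 0.00871 with the block). Of the exon bases of Timp3, 21.3% lie opposite exons of Syn3, and the sources used here do not say whether the counting used strand. Timp2 stood at 190 and 205 FPKM after Lkb1 siRNA, against 195 and 206 FPKM after control siRNA, and passed in neither fit. Timp4 had 2 counts in 1 Lkb1 siRNA library and 0 in the other three.

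Setting the families side by side, their median log2 fold changes were 0.12 for ADAMTS, 0.09 for ADAMTSL, -0.05 for ADAM, -0.02 for MMP and -0.17 for TIMP genes, beside 0.00049 for all genes. Members whose groups did not overlap in CPM numbered 10 as higher and 15 as lower, beside 21.2% and 21.4% of all genes, or 42.7% in either direction. By family these were 4 higher and 3 lower for ADAMTS, 1 and 0 for ADAMTSL, 2 and 6 for ADAM, 3 and 4 for MMP, and 0 and 2 for TIMP genes. The same sign in both batches was seen in 35 of the 46 members, or 76.1%, beside 67.2% of all genes. The differences between the families are a description and were not tested. The mesenchyme markers Col1a1 and Acta2 were lower after Lkb1 siRNA, while the other 3 markers overlapped between the groups. Col1a1 stood at 444 FPKM in the batch 2 Lkb1 siRNA library and at 445 FPKM in the batch 1 control siRNA library. With the block in edgeR 7 members passed as lower and 6 as higher, beside 6.99% and 6.59% of all genes. The part of these markers in the members' values was not tested.

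**Figure D4:**
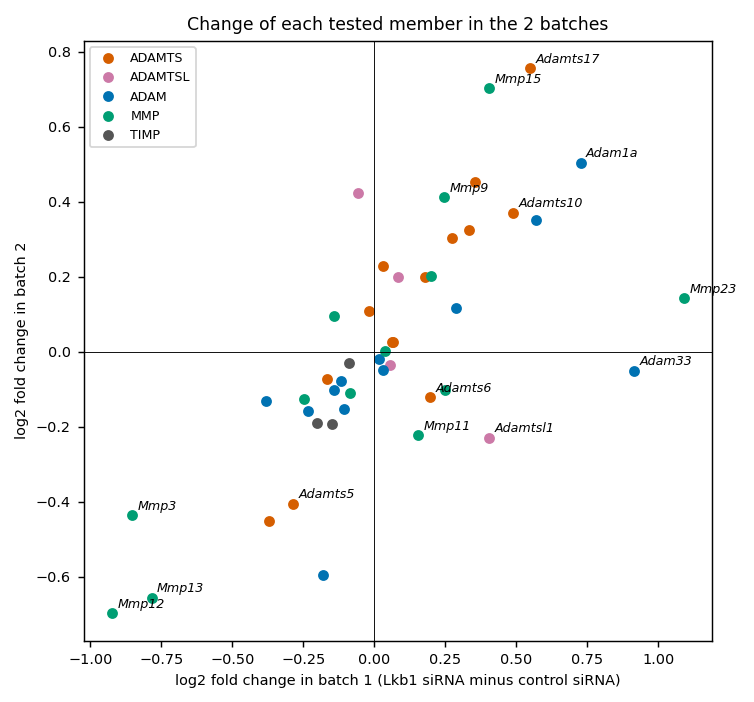
Log2 fold change of each of the 46 tested members in batch 1 (x axis) and batch 2 (y axis), from CPM plus 0.5, coloured by family, with no error since each point compares 1 library with 1 library. The 35 members with the same sign in both batches lie at the upper right and the lower left, with Adamts17 at 0.55 and 0.76.

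The 17 members that were not tested had at most 11 counts in any library. They were Adam4, Adam5, Adam21, Adam28, Adam30, Adam32, Adamts16, Adamts18, Adamts19, Adamtsl2, Mmp1a, Mmp1b, Mmp8, Mmp10, Mmp24, Mmp27 and Timp4. Adamtsl2, whose counting interval is given above, was named after its values were seen. Without the filter it was not called (adjusted p = 0.292, edgeR). In the other members listed here a difference was not detectable at this depth.

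Members also differed between the batches, and in 1 direction. In the fit with both terms, 9 of 46 members were higher in batch 2 than in batch 1 and 0 were lower at an adjusted p under 0.05, beside 6.3% and 6.62% of all genes, or 12.9% in either direction. The 9 were Adamts1, Adamts5, Adamts6, Adamts7, Adamts10, Adamts12, Adamtsl1, Mmp9 and Mmp11. The median difference of the members was 0.20 on the log2 scale, with 39 of 46 positive, beside 0.0051 for all genes. By family the median was 0.23 for ADAMTS, 0.29 for ADAMTSL, 0.08 for ADAM, 0.23 for MMP and 0.08 for TIMP genes.

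Adamts1 stood at 188 and 182 FPKM in the Lkb1 and control siRNA libraries of batch 2, against 132 and 122 FPKM in those of batch 1. The difference was 0.53 (SE 0.0457, adjusted p = 7.87e-27, edgeR). Adamts12, a protease that binds cartilage oligomeric matrix protein and was named after its values were seen, stood at 2.31 and 2.02 FPKM in batch 2, against 1.66 and 1.41 FPKM in batch 1. Its difference was 0.52 (SE 0.107, adjusted p = 6.75e-05, edgeR).

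Adamts17 differed by 0.13 between the batches (SE 0.0535, adjusted p = 0.083, edgeR), against 0.66 between the siRNA groups. The blocked fit thus placed Adamts17 among members with a large siRNA and a small batch difference, and Adamts1 the other way round. Adamts7, Adamts10, Adamts5 and Mmp9 passed for both terms. The labels do not say what differed between the batches, and the transfection reagent of each library is not given.

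**Figure D5:**
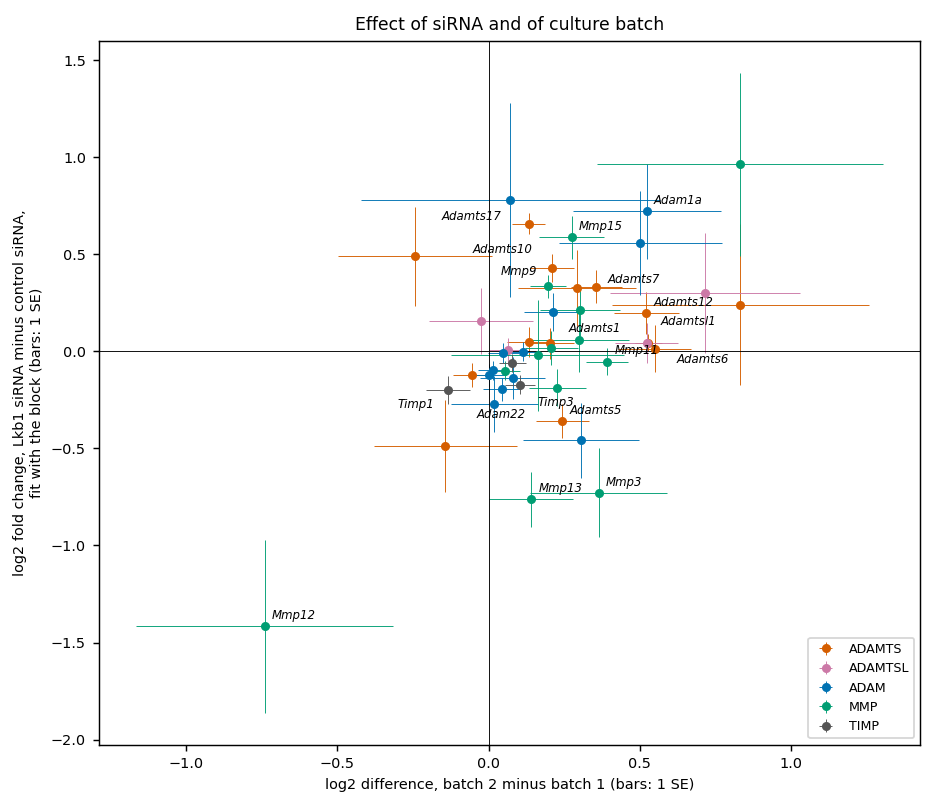
Difference between batch 2 and batch 1 (x axis) and between Lkb1 siRNA and control siRNA (y axis) of each tested member on the log2 scale in the fit with both terms, with bars of 1 SE and names for members past the threshold in either term. Adamts17 lies high and near the vertical axis at 0.13 and 0.66, and Adamts1, Adamts6, Adamtsl1, Adamts12 and Mmp11 lie to the right near the horizontal axis.

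Genes that act on these proteases or are cut by them were looked at in a list of 52 inhibitors, activating convertases, plasminogen system members, trafficking partners and substrates, of which 49 were in the table and 44 were tested. None passed without the block in edgeR, while 7 had an unadjusted p under 0.05, beside 11.1% of all genes. With the block 2 of 44 passed as higher and 11 as lower, beside 6.59% and 6.99% of all genes, and in DESeq2 with the block 0 and 2. The list's median log2 fold change was -0.06, with 17 positive and 27 negative.

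Acan, the proteoglycan aggrecan that ADAMTS4 and ADAMTS5 cleave, came nearest. It stood at 6.45 and 6.19 FPKM after Lkb1 siRNA, against 9.97 and 8.84 FPKM after control siRNA, with a log2 fold change of -0.61 (SE 0.0863, adjusted p = 0.0573, edgeR). It passed with the block (adjusted p = 1.46e-19), in DESeq2 (adjusted p = 0.00057) and in edgeR without the filter on low counts. Fbn1, the fibrillin-1 to which ADAMTS10 binds, stood at 13.4 and 14.7 FPKM after Lkb1 siRNA, against 16.5 and 16.5 FPKM after control siRNA. Its log2 fold change was -0.27 (SE 0.0704, adjusted p = 0.227, edgeR), and it passed with the block (adjusted p = 2.36e-06).

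Col1a1, a fibrillar collagen, stood at 368 and 444 FPKM after Lkb1 siRNA, against 445 and 565 FPKM after control siRNA. Its log2 fold change was -0.35 (SE 0.112, adjusted p = 0.319, edgeR), and it passed with the block (adjusted p = 1.36e-14). Sfrp1, described as an inhibitor of ADAM10, stood at 1.87 and 2.00 FPKM after Lkb1 siRNA, against 2.44 and 2.48 FPKM after control siRNA. Its adjusted p was 0.358 without the block and 0.034 with it (edgeR), so it passed as lower with the block. Col2a1, the collagen of cartilage, and Dll1, a Notch ligand shed by ADAM enzymes, lay the other way. Col2a1 stood at 2.23 and 2.95 FPKM after Lkb1 siRNA, against 1.35 and 1.60 FPKM after control siRNA. Dll1 stood at 0.96 and 1.07 FPKM after Lkb1 siRNA, against 0.45 and 0.51 FPKM after control siRNA, and these 2 were the genes of the list that passed as higher with the block.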

How the data were processed

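The submitters' processing notes name RSEM 1.2.8, HISAT2 2.0.4 and Bowtie2 2.2.5 as the authors' tools and GRCm39 as the build, without roles or order; the annotation release is not given in the sources used here. The deposited read counts were expected counts estimated by the authors per gene and per RefSeq transcript, with between 5.73% and 5.97% of gene counts not whole, and they were rounded here. The deposited FPKM values, which the authors scaled to length and library size, give the levels. The deposited TPM values and the authors' normalised read counts, a signal made from the count and 1 factor per library, per the file headers, entered no test. A doubled decimal point in 24 gene and 56 transcript cells was read as 1 point.

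Counts were tested with edgeR 4.0.16 in R 4.3.3 (quasi-likelihood F-test, robust, TMM, expression filter with a minimum count of 10) and adjusted by Benjamini-Hochberg over all genes or transcripts tested, with a threshold of 0.05. Log2 fold changes are Lkb1 siRNA minus control siRNA, with the standard error (SE) derived from the F statistic. Uncertainty of assigning reads to transcripts was not modelled. The scripts were tested on simulated data without a batch effect, which checks the code and not the error rate in these data. Within-batch values use CPM plus 0.5.

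The number that pairs libraries is the batch of the labels. Libraries of 1 batch deviated together from the means of their groups (correlation 0.355 over genes). The common biological coefficient of variation came to 3.15% with batch as a block and 6.39% without it. The fit without the block is the main one because no stated method uses it. Alternatives were DESeq2 1.42.0, limma 3.58.1 on log2(FPKM + 1) and log2(FPKM + 0.1), other scalings and filters, and leaving out each library, where the lone library left in a group is assumed to vary like the other group. Counting intervals and low counts cover counting error only.

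Members, roles and lists were chosen with earlier results of these data known. Named genes are Adamts17 and its role group, the 5 smallest p-values and the 4 highest levels of each family, members that the blocked fit called, and 6 genes of the regulator and substrate list. Adamts12, Adamts20, Adam33, Adamtsl2 and Mmp23 were named after their values were seen. No protein table was used, so the zinc site was read from codons. Promoters of Mmp9 and Adamts10 are not used here.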

Additional observations from a re-analysis of the deposited data

How the results depend on the processing

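The main limits were 2 libraries per group and the depth of low genes. The replicate block moved the counts most, from the 4 higher and 6 lower of all genes to 806 and 854 genes, and among the members to 6 higher and 7 lower (1 and 0 in DESeq2 with the replicate block) and in the regulator and substrate list to 2 higher and 11 lower. The cause of the other changes below was not tested. Over all genes, the count of higher and of lower genes was 2 and 1 with scaling by library size and also with a minimum of 5 CPM, 13 and 32 with at least 1 count in any library, 16 and 31 in DESeq2, 44 and 80 in DESeq2 with the replicate block, and 0 and 0 in limma with either pseudocount. It ran from 24 to 136 higher and from 42 to 143 lower when single libraries were left out. Without the batch 1 and batch 2 Lkb1 siRNA libraries in turn it was 54 and 24 higher and 43 and 42 lower, and without the batch 1 and batch 2 control siRNA libraries 110 and 136 higher and 143 and 88 lower.

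The count of members called as higher was 0 with library size, with 5 CPM and in limma with either pseudocount, and ran from 1 to 4 with single libraries left out. It was 4 without the batch 1 Lkb1 siRNA library and 2 without the batch 2 control siRNA library. The count of members called as lower ran from 0 to 2, being 2 without the batch 1 control siRNA library and 1 without the batch 2 control siRNA library. In the regulator and substrate list, 1 gene was lower with at least 1 count in any library and in DESeq2, and 2 were lower in DESeq2 with the replicate block. With single libraries left out the list gave 0 to 1 higher and 1 to 2 lower genes. No transcript of a member passed under any alternative tried, the replicate block included. The Adamts17 log2 fold change ran from 0.54 to 0.77 with single libraries left out and passed each time. It missed the threshold with library size at 0.69 (adjusted p = 0.0633), with 5 CPM at 0.66 (adjusted p = 0.0629), and in limma at 0.65 with a pseudocount of 1 (adjusted p = 0.293) and at 0.68 with 0.1 (adjusted p = 0.246).

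Family medians moved as follows. The ADAMTS median was 0.16 with library size, 0.24 with at least 1 count, 0.050 with 5 CPM, 0.25 in DESeq2, 0.21 in DESeq2 with the replicate block and 0.072 in limma with a pseudocount of 1, and ran from -0.072 to 0.38 with single libraries left out. The ADAMTSL median was 0.12 with library size, 0.15 with at least 1 count, 0.034 with 5 CPM, 0.16 in DESeq2 with and without the block, and 0.077 and 0.15 in limma with pseudocounts of 1 and 0.1, and ran from -0.034 to 0.52. The ADAM median was -0.021 with library size, -0.016 and -0.017 in limma with pseudocounts of 1 and 0.1, 0.018 with at least 1 count, -0.11 with 5 CPM, 0.030 in DESeq2 and -0.00487 in DESeq2 with the block, and ran from -0.065 to 0.035. The TIMP median was -0.14 with library size and in limma with a pseudocount of 0.1, -0.12 with at least 1 count and in DESeq2 with or without the block, and -0.13 in limma with a pseudocount of 1, and ran from -0.13 to -0.11. The MMP median ran from -0.13 to 0.14, and that of all genes from -0.00142 to 0.000978. The median of all genes was 0.033 with library size and 0.030 and 0.035 in limma with pseudocounts of 1 and 0.1, so these settings moved all genes as well as the families. The settings with at least 1 count and DESeq2 took in more genes of each family, and 5 CPM fewer except among TIMP genes, of which 3 stayed. Leaving out either control siRNA library took in Adamtsl2 and Adam4, and leaving out the batch 2 Lkb1 siRNA library took in Adam4, so those ADAMTSL and ADAM medians were over 5 and 13 genes. Both genes entered through Lkb1 siRNA libraries, which alone reached the minimum count of 10 in them.

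Among the 30 other named members, 244 values under alternatives that kept every library stayed on the same side of the threshold and in the same direction, 12 newly passed, all with the replicate block, 0 lost a call and 7 changed sign. The 7 were Adam10 (0.030, 0.032 and 0.033 with library size and in limma with pseudocounts of 1 and 0.1, 0.00135 with 5 CPM) and Adam15 (0.023 with library size, 0.028 and 0.029 in limma with pseudocounts of 1 and 0.1), both near 0; apart from the 5 CPM value, they arose under the scalings that moved the median of all genes by about as much. With single libraries left out the sign changed for 9 genes, none of which passed in the main test. The log2 fold changes ran from -0.065 to 0.064 for Adam10, -0.053 to 0.035 for Adam15, -0.23 to 0.34 for Adamts1, -0.30 to 0.41 for Adamts6, -0.33 to 0.53 for Adamtsl1, -0.045 to 0.064 for Adamtsl4, -0.29 to 0.72 for Adamtsl5, -0.32 to 0.26 for Mmp11 and -0.088 to 0.14 for Mmp14.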
